A study of Mus musculus with 16 samples.

Results

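The genes described here are 10 enzymes that remove superoxide and peroxides from cells. They are the superoxide dismutases Sod1, Sod2 and Sod3, catalase (Cat), the glutathione peroxidases Gpx1, Gpx3, Gpx4 and Gpx6, and the peroxiredoxins Prdx1 and Prdx5. They were chosen by symbol and make up 10 of the 57186 genes listed in the count table, and all 10 reached the minimum of 100 counts over all libraries that was required for testing.

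Kidney RNA was sequenced from 16 male mice aged 16 weeks, 4 in each of 4 groups, on a C57BL/6J background. All mice, controls included, were Elmo1H/H, homozygous for an allele that raises expression of Elmo1, an activator of the small GTPase Rac1. Non-diabetic Elmo1H/H Ins2+/+ mice were left untreated (ND_C) or given vitamin B12 (ND_B12), and diabetic Elmo1H/H Ins2Akita/+ mice (Ins2A/+ in the genotype labels) were likewise left untreated (D_C) or given B12 (D_B12). Akita is an allele of an insulin gene, whose misfolded product leads to loss of beta cells and to hyperglycemia, so the diabetes is of the insulin-deficient kind. Treated mice drank B12 at a dose of 10 mg/kg per day from 8 weeks of age, and this lasted 8 weeks by the methods and 16 weeks by the labels. Tissue was collected at ZT7 to ZT9, in the light phase.

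Total counts ran from 65271308 to 91771136 per library, and the 10 enzymes together took between 1.99% and 2.52% of them. Some labels are in doubt. In log2 CPM over the genes tested, ND_B12 4 correlated best on average with the libraries labelled D_C, and D_C 1 with those labelled ND_C. ND_C 4, ND_B12 1 and D_C 2 also correlated best with another group, in each case one of the same diabetes label. The Ins2 genotype cannot be read from kidney RNA. Group means published for these animals were matched only by sets of libraries other than the labelled ones. In those sets the libraries labelled D_B12 stand as untreated diabetic kidneys, the libraries labelled D_C other than D_C 1 stand with ND_B12 4 as B12-treated diabetic kidneys, and D_C 1 stands among the B12-treated non-diabetic ones. ND_C 3 and ND_B12 1 stand in each other's group. The treatment label is thus in doubt for 10 libraries and the diabetes label for ND_B12 4 and D_C 1. The groups below are those of the labels, each direction is a direction between labels, and results that rest on ND_B12 4 or D_C 1 are given with and without them. Both were picked out partly from these same counts, so a smaller p for diabetes without them is in part built in and is no added support. The libraries carry dates in their names, all in August for the non-diabetic groups and from October to November for D_B12, and only 28 August holds libraries of both kinds (ND_B12 2, 3 and 4, and D_C 1). With a single diabetic library there, no value within a date could be had, and date and diabetes can hardly be told apart. Every library labelled D_C is also dated before every one labelled D_B12. The ND_C dates come no later than those of ND_B12, with only 21 August shared. Date and B12 can thus hardly be told apart either.

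Superoxide is formed as electrons leak from mitochondria and by NADPH oxidases. The dismutases turn it into hydrogen peroxide and oxygen, Sod1 with copper and zinc in the cytosol, Sod2 with manganese in mitochondria, and Sod3 with copper and zinc outside the cell. Hydrogen peroxide is then removed by catalase in peroxisomes, by peroxiredoxins that are regenerated by thioredoxin, and by glutathione peroxidases that are regenerated by glutathione. The proximal tubule of the kidney is rich in mitochondria and peroxisomes and is the main source of Gpx3, the glutathione peroxidase of plasma.

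The 4 glutathione peroxidases differ at the codon of the catalytic residue. In Gpx1, Gpx3 and Gpx4 it is a TGA codon inside the reading frame, which is read as selenocysteine and ties these enzymes to the supply of selenium, whereas the aligned codon of Gpx6 is TGT, a cysteine codon. The coding windows of 63 bases around that codon are shown 5′ to 3′ from GRCm39, with the catalytic codon in capitals, because the selenium-dependent members and Gpx6 are set side by side in the results.
Gpx1 (Gpx1-201, codon 47, chr9:108216620-108216682, plus strand): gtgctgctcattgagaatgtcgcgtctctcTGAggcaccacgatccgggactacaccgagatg
Gpx3 (Gpx3-201, codon 73, chr11:54798052-54799374, plus strand, intron left out): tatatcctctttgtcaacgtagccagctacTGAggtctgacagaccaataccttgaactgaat
Gpx4 (Gpx4-202, codon 73, chr10:79890541-79890603, plus strand): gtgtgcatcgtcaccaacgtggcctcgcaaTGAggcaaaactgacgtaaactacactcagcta
Gpx6 (Gpx6-201, codon 73, chr13:21497917-21501162, plus strand, intron left out): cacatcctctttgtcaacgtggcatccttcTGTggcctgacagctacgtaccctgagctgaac
Over the window, codon included, Gpx6 matched Gpx3 at 46 of 63 bases, Gpx1 at 29 and Gpx4 at 27.

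Gpx3 dominated the counts of the whole group. It alone took from 1.51% of a library's counts in D_C 4 to 2.02% in ND_B12 4. Its normalized count, which is the count divided by a median-of-ratios size factor, was 1311089 ± 95342 in ND_C and 1413880 ± 169537 in ND_B12, against 1261107 ± 112095 in D_C and 1399493 ± 111368 in D_B12, where the value after ± is here and below the SD over n = 4 libraries. Levels of different genes can be compared only per length, and this was done for the 4 members whose main transcript had the same version in the annotation at hand. On that scale, in normalized counts per kilobase of the main transcript, Gpx1-201 stood highest with 47868 ± 4806 in ND_C, and each of its 16 libraries, from 38780 to 58256, lay above every value of the other 3 transcripts. Cat-201 followed with 32443 ± 964 and Gpx4-202 with 31632 ± 1502 per kilobase in ND_C, where the means lay within their spread. Their ranges over all libraries, 29346 to 37648 and 26080 to 34849, overlapped. In ND_B12 their means lay further apart, at 35343 ± 1622 and 31014 ± 820 per kilobase. Gpx6-201 was lowest with 1435 ± 164 per kilobase in ND_C, and its highest library, at 1934, lay far below the lowest of the others.

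**Figure D1:**
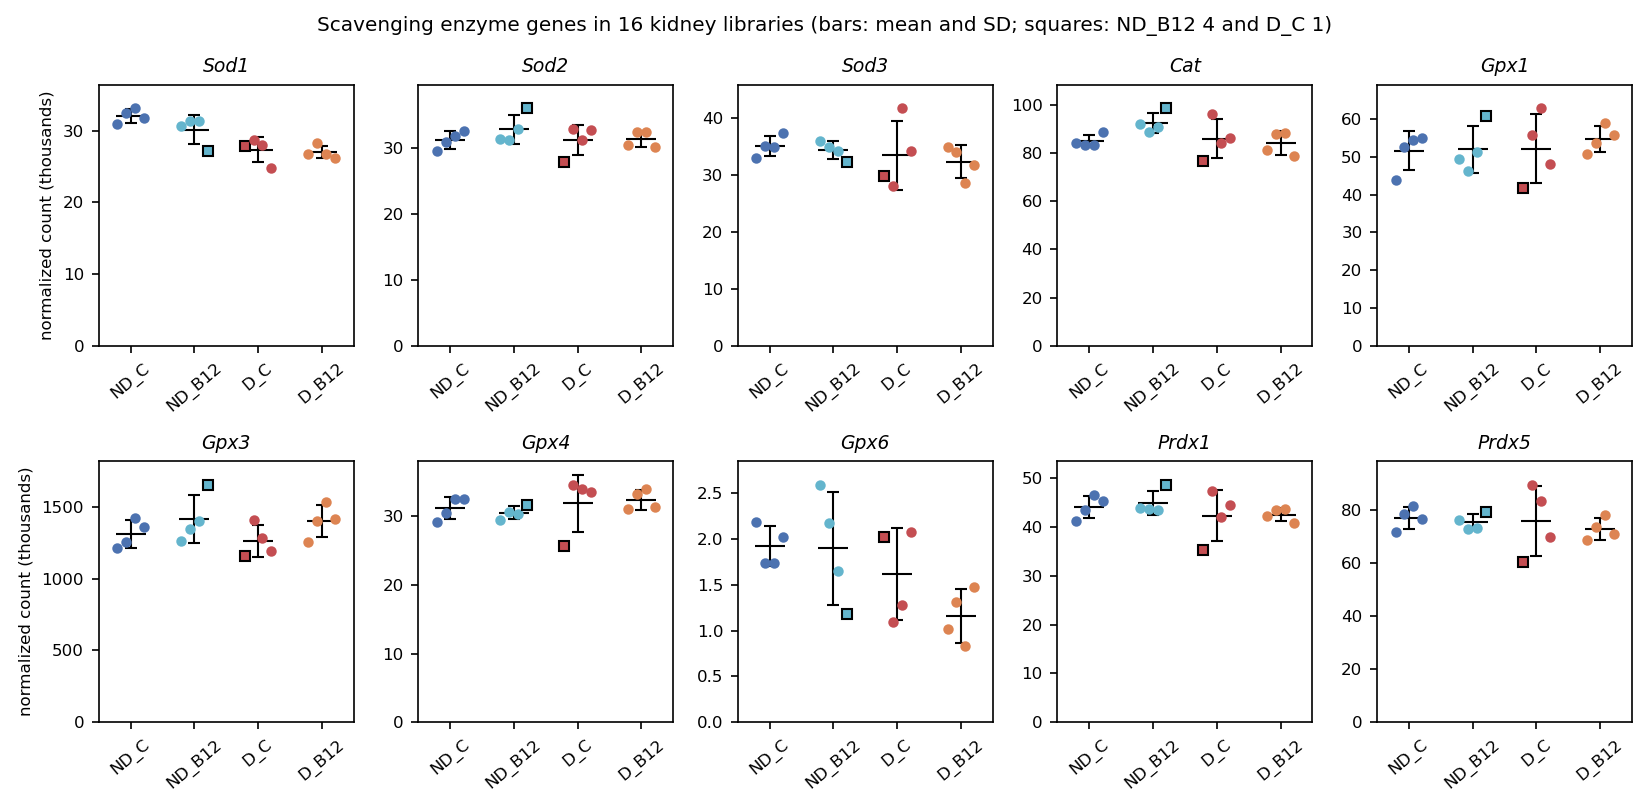
Normalized counts (vertical axes, each starting at 0, in units of 1000 counts) of the 10 enzyme genes in the 16 kidney libraries, 4 per labelled group, with horizontal and vertical bars for mean and SD and squares for ND_B12 4 and D_C 1. Sod1 is lower in both diabetic groups with ND_B12 4 at the diabetic level, Gpx6 is most spread out, and the square of D_C 1 is the lowest point in 7 of the panels.

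The question of the first comparison was whether diabetes changes these genes. With both diabetic groups set against both non-diabetic groups, 1 of 10 members passed the test. Sod1, the cytosolic dismutase, was lower in diabetic kidneys, and none was higher. Over all 25408 genes tested, 3.02% passed the same test and 2.16% passed it as lower, so a single member says little about the enzymes as a group. The log2 fold changes of the members ran from -0.48 to 0.06 with a median of -0.05, beside a median of 0.007 over all genes, and 8 of 10 lay below 0. Without ND_B12 4 and D_C 1 the median of the members was 0.0015, 5 of 10 lay below 0 and 2 passed, where 10.2% of all genes did.

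Sod1 (ENSMUSG00000022982, chr16:90017408-90027657, plus strand, GRCm39) had normalized counts of 30895, 32538, 33112 and 31790 in ND_C. In ND_B12 they were 30676, 31368, 31344 and 27114. In D_C they were 27875, 28757, 27992 and 24824, and in D_B12 they were 26761, 28231, 26712 and 26264. All 8 diabetic libraries lay below 7 of the 8 non-diabetic ones, and only ND_B12 4, whose diabetes label is in doubt, fell among the diabetic values. The mean was 27177 in diabetic and 31105 in non-diabetic kidneys, a log2 fold change of -0.20 (SE 0.043, adjusted p = 0.0266 by edgeR), which is a difference of -12.7% with a 95% interval from -18% to -6.99%. The direction held on both sides of the treatment. Between untreated groups, where 1.66% of all genes passed and no member did, the counts of Sod1 did not overlap and the log2 fold change was -0.23 (SE 0.061) and missed the threshold with an adjusted p of 0.0625. Between B12-treated groups, where 0.823% of all genes passed and again no member, it was -0.16 (SE 0.061, adjusted p = 0.186).

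The call for Sod1 rested on small margins. It was lost when ND_C 2, ND_C 3, ND_B12 1, ND_B12 2, ND_B12 3, D_B12 1 or D_B12 3 was left out, with adjusted p of at most 0.0643, and when the date in the library name entered the fit, where the log2 fold change was -0.10 and the adjusted p 0.724. In those 7 fits without a library, 235 to 322 of all genes passed, beside 767 with all libraries. The log2 fold change of Sod1 stayed between -0.19 and -0.18 in them. With the date, 0 of 25408 genes passed, so these losses were not particular to Sod1. Without ND_B12 4 and D_C 1 the log2 fold change of the average effect was -0.22 with an adjusted p of 0.00318, where 10.2% of all genes passed. That between untreated groups was -0.24 with an adjusted p of 0.0186, where 8.57% of all genes passed. Groups labelled D_C and ND_C without overlap, the diabetic one lower, were found for 4.58% of all genes. Sod1 shares exonic sequence with Scaf4 on the other strand, and reads of such partners cannot be told apart where counting did not use strand, which is not stated.

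Summed markers of the first segments of the proximal tubule, the cells that make up most of the kidney cortex, were lower in D_C than in ND_C, as Sod1 was, although the single markers went both ways. The sum over Slc5a2, Slc5a12, Slc2a2, Slc34a1 and Slc22a6 was 550393 to 616878 normalized counts in ND_C and 486489 to 505477 in D_C. It was 558462 to 645744 in ND_B12 and 521450 to 566565 in D_B12, where the groups overlapped. Of these 5 markers, the phosphate transporter Slc34a1 was lower on average in diabetic kidneys (log2 fold change -0.25, SE 0.048, adjusted p = 0.0178 by edgeR) and the other 4 did not pass. Between untreated groups 4 lay below 0 and 1 above. Between B12-treated groups and on average 3 lay below 0 and 2 above, with average effects from -0.25 to 0.10. ND_B12 4 had the highest sum of all libraries and a Sod1 count at the diabetic level. In whole kidney, fewer cells of a type and less RNA per cell cannot be told apart, and the part of these markers in the result was not tested.

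Sod2, the mitochondrial dismutase, and Sod3, the secreted dismutase, did not pass. Sod2 had normalized counts of 29483, 30838, 31813 and 32591 in ND_C and of 31337, 31090, 32772 and 35940 in ND_B12. It had 27853, 32885, 31197 and 32606 in D_C and 30388, 32345, 32376 and 30066 in D_B12. The groups overlapped throughout, and the average diabetes effect was -0.04 on the log2 scale with a 95% interval from -0.14 to 0.06. Sod3 had its lowest and its highest library within the same group, 28027 in D_C 2 and 41688 in D_C 3. Its means were 35124 ± 1792 in ND_C and 34348 ± 1599 in ND_B12, against 33432 ± 6083 in D_C and 32335 ± 2876 in D_B12, and the average diabetes effect was -0.08 with an interval from -0.23 to 0.07.

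Gpx6, the cysteine-containing glutathione peroxidase, showed the largest fold difference of the 10 and the widest spread. Its normalized counts were 2185, 1740, 1744 and 2024 in ND_C. In ND_B12 they were 2592, 2172, 1653 and 1179. In D_C they were 2025, 1092, 1284 and 2079, and in D_B12 they were 1016, 1310, 830 and 1479. The groups overlapped in each comparison made. D_C was divided into a low and a high pair, and ND_B12 reached from the highest value of all, in ND_B12 1, down into the range of D_B12, in ND_B12 4. The average diabetes effect was -0.48 on the log2 scale (SE 0.171, adjusted p = 0.13 by edgeR), with a 95% interval from -0.84 to -0.12. Between B12-treated groups it was -0.72 (SE 0.243, adjusted p = 0.144) and between untreated groups -0.25 (SE 0.241, adjusted p = 0.644). Without ND_B12 4 and D_C 1 these values were -0.88 (adjusted p = 0.0515) and -0.38 (adjusted p = 0.334).

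The outcome for Gpx6 turned on the tool and on ND_B12 4. The average effect passed with DESeq2 (adjusted p = 0.0471), without ND_B12 4 (log2 fold change -0.57, adjusted p = 0.048) and without ND_B12 4 and D_C 1 (-0.63, adjusted p = 0.0234), and the effect between B12-treated groups passed with DESeq2 alone (-0.71, adjusted p = 0.0481). Without ND_B12 4, 1376 of 25214 genes passed for the average effect, and without both libraries 10.2% did. With DESeq2 7.21% of all genes passed for it, beside 4.51% between B12-treated groups.

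**Figure D2:**
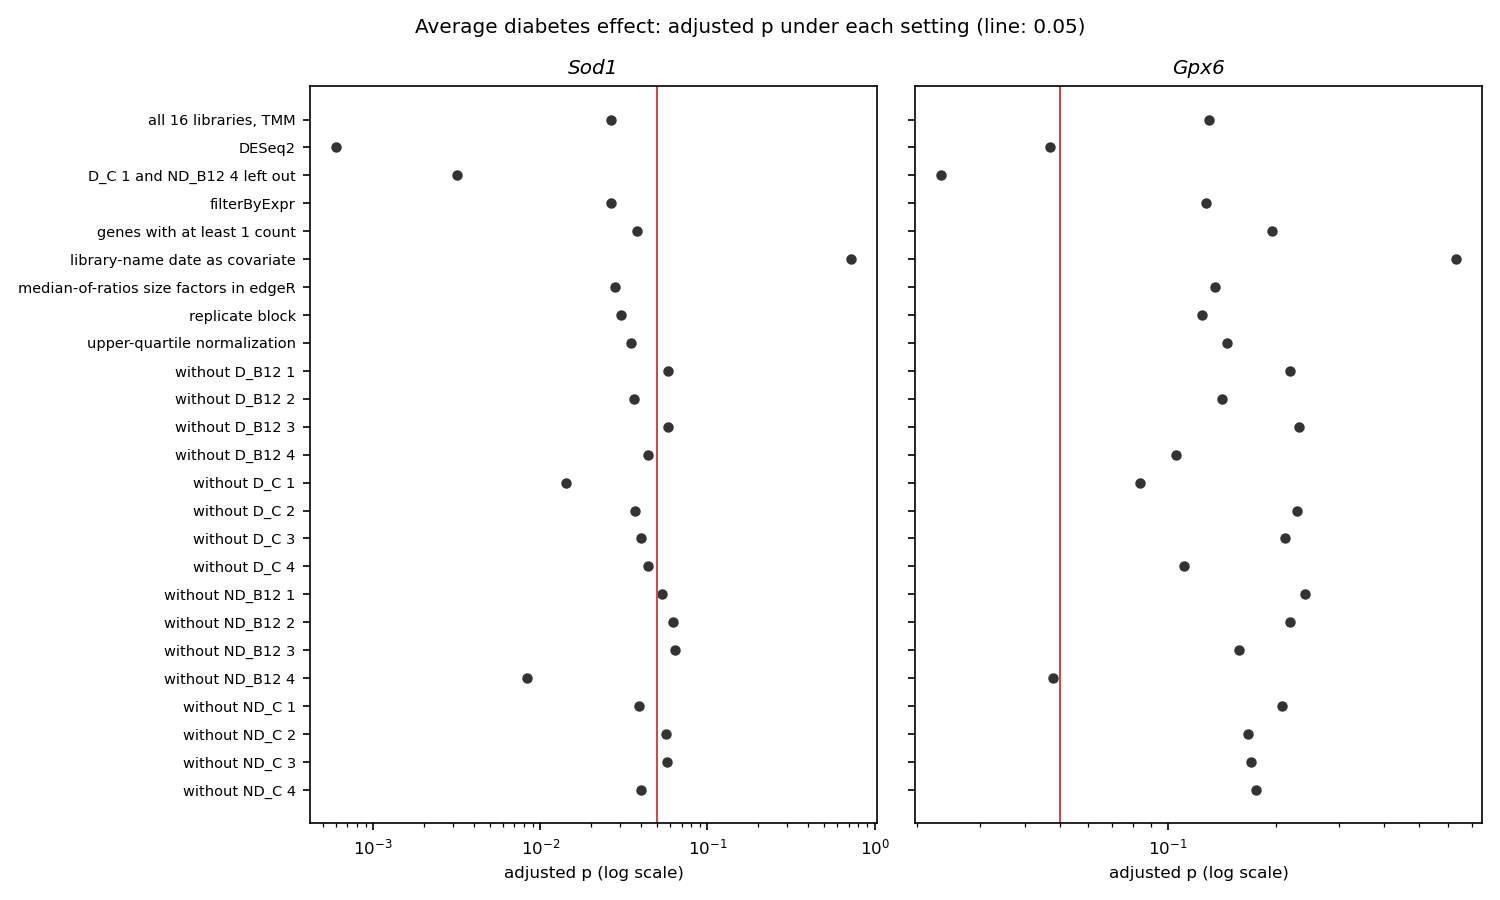
Adjusted p of the average diabetes effect (horizontal log axes) for Sod1 and Gpx6 under each setting (rows), with a line at 0.05. Sod1 lies left of the line in most rows and right of it at 0.724 with the date as covariate, while Gpx6 crosses it with DESeq2, without ND_B12 4 and without ND_B12 4 and D_C 1.

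None of the selenium-dependent peroxidases passed. Gpx1, the main peroxidase of the cytosol, had means of 51530 ± 5178 in ND_C and 51959 ± 6279 in ND_B12, against 52069 ± 9110 in D_C and 54738 ± 3434 in D_B12, and its average diabetes effect was 0.04 with a 95% interval from -0.13 to 0.22. Gpx4, which reduces peroxides of membrane lipids, had means of 31173 ± 1622, 30496 ± 911, 31904 ± 4155 and 32374 ± 1440 in the same order, and its effect was 0.06 with an interval from -0.06 to 0.18. For Gpx3 the effect was -0.04 with an interval from -0.19 to 0.12. The widest of these intervals, that of Gpx1, reaches from -8.76% to 16.4%.

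Catalase and the peroxiredoxins did not pass either. Cat had normalized counts of 84155, 83122, 83400 and 88521 in ND_C and of 91795, 88541, 90787 and 98399 in ND_B12. It had 76705, 96281, 84120 and 85976 in D_C and 81166, 87979, 88409 and 78849 in D_B12. Every ND_B12 library thus lay above every ND_C and every D_B12 library, although by a narrow margin, and 4.81% and 11.7% of all genes had no overlap in these comparisons. The separation rests on labels in doubt, since ND_C 3, at 83400, and ND_B12 1, at 91795, stand in each other's group in the published sets. The log2 fold change of Cat was 0.13 (SE 0.071, adjusted p = 0.703) for B12 in non-diabetic kidneys and -0.14 (SE 0.071, adjusted p = 0.336) for diabetes in B12-treated kidneys.

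Prdx1, a cytosolic peroxiredoxin, had means of 44174 ± 2291 in ND_C and 44986 ± 2479 in ND_B12, against 42327 ± 5230 in D_C and 42557 ± 1327 in D_B12. Prdx5, which is found in mitochondria, peroxisomes and the cytosol, had means of 76979 ± 4182, 75216 ± 3008, 75689 ± 13096 and 72802 ± 4061 in the same order. Their average diabetes effects were -0.07 with an interval from -0.19 to 0.05 and -0.04 with an interval from -0.18 to 0.11. The SD of D_C was the largest of the 4 groups for both, and for Sod2, Sod3, Cat, Gpx1 and Gpx4 as well.

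D_C 1 was the lowest of all 16 libraries in 7 of 10 members, namely Sod2, Cat, Gpx1, Gpx3, Gpx4, Prdx1 and Prdx5, while ND_B12 4 was the highest in 4, namely Sod2, Cat, Gpx3 and Prdx1. D_C 1 was also the lowest library for 24.4% of the 8730 genes with a mean above 1000 normalized counts, and ND_B12 4 the highest for 12.1% of them. Without both libraries the average diabetes effect turned from below to above 0 for Sod2 (0.01), Gpx3 (0.03) and Prdx5 (0.02). That of Gpx1 was 0.13 with an adjusted p of 0.238 and that of Gpx4 0.11 with an adjusted p of 0.0697, and none of these passed.

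**Figure D3:**
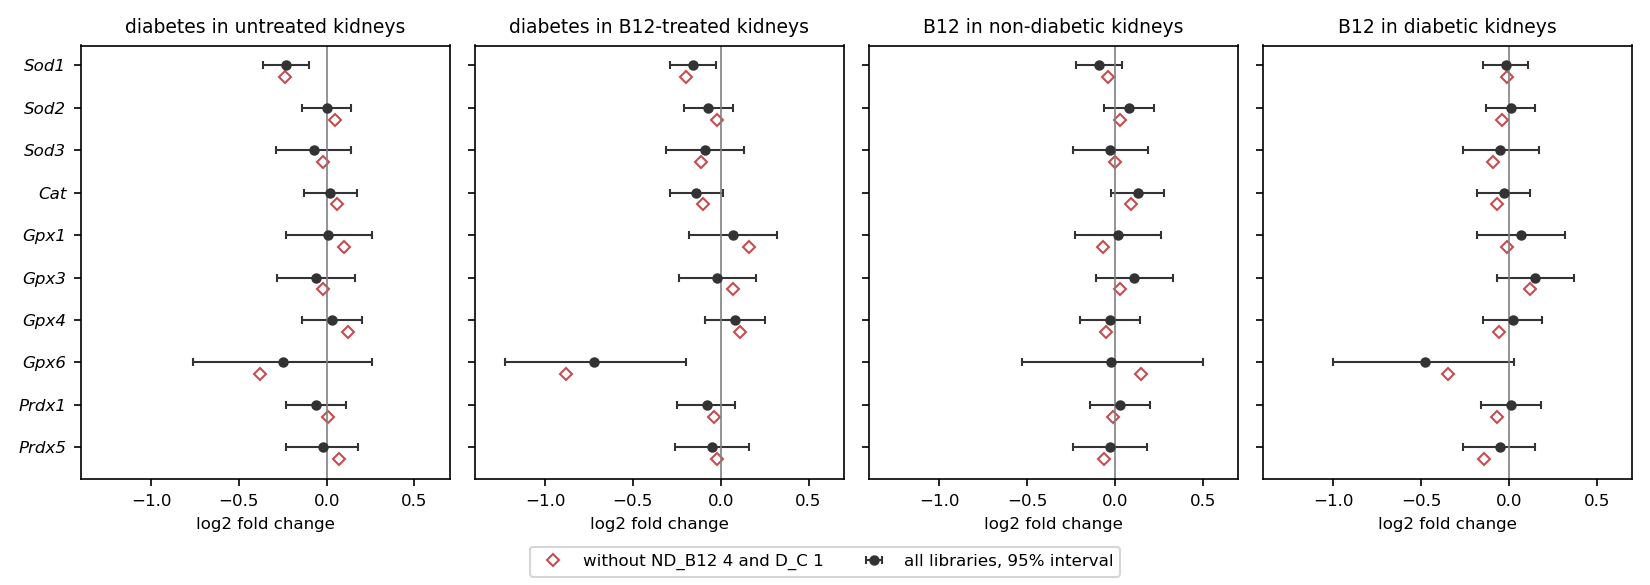
Log2 fold changes (horizontal axes, first group minus second) of the 10 members in the 4 comparisons of 2 groups, with 95% intervals from all libraries (circles) and values without ND_B12 4 and D_C 1 (diamonds). The intervals exclude 0 for Sod1 in both diabetes panels and for Gpx6 between B12-treated groups, and those of the B12 panels all include 0.

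The next question was whether B12 changes these genes. No member passed for B12 in non-diabetic kidneys, in diabetic kidneys or on average, nor for the interaction of diabetes and B12, and none of the 10 reached an unadjusted p below 0.05 in any of the 4. By edgeR, with all libraries and only the groups in the fit, 0 of 25408 genes (0%) passed in each of them, while 1937, 3468, 1321 and 4093 genes in that order had an unadjusted p below 0.05 and DESeq2 called 6, 681, 6 and 923. This 0 depended on the setting. Without ND_B12 4 and D_C 1 edgeR called 0, 216, 0 and 87 of 24831 genes in that order. With the date as covariate it called 0, 204, 0 and 753 of 25408. In diabetic kidneys the members' log2 fold changes, D_B12 minus D_C, ran from -0.48 for Gpx6 to 0.15 for Gpx3, and these ends were -0.35 and 0.12 without ND_B12 4 and D_C 1. The signs hold for the labels only, and with D_C and D_B12 exchanged whole, each would be the opposite. The published sets also move D_C 1 and ND_B12 4, so signs in those sets need not be opposite and were not computed. Under the labels 5 of 10 members lay below 0 with all libraries, and 9 of 10 without ND_B12 4 and D_C 1. The mean of Gpx6 was 1159 in D_B12 and 1620 in D_C, a difference of -28.5% with a 95% interval from -49.9% to 2.12%. The mean of Gpx3 was 1399493 in D_B12 and 1261107 in D_C, a difference of 11.1% with an interval from -4.61% to 29.4%. Sod1, the member that was lower with diabetes, had means of 26992 in D_B12 and 27362 in D_C, a difference of -1.25% with an interval from -9.66% to 7.93%. The interaction for Gpx6 was -0.47 with an interval from -1.19 to 0.26, and for Cat -0.15 with an interval from -0.37 to 0.06. The interaction and the average B12 effect also hold for the labels only. With D_C and D_B12 exchanged, the contrast named interaction would be the average B12 effect with its sign turned and on another scale. The reverse would hold for the average B12 effect. The groups compared for B12 also differ in date.

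At the level of transcripts most members were carried by a single product. Of 40 member transcripts matched to the annotation, 14 held at least 5% of their gene's count. Cat-201, Gpx6-201 and Sod3-201 held 100%, Gpx1-201 held 99.6%, Sod2-201 held 98.1%, Gpx3-201 held 97.5% and Gpx4-202 held 97.3%. Sod1 was divided between the coding transcript Sod1-201, with 64.3% of the counts, and Sod1-202, annotated as a retained intron, with 35.7%. These are shares of counts and not of molecules. Sod1-202 is 3970 bases long, and no value per length was made for Sod1-201. The share of Sod1-202 was 36.2% ± 0.92 in ND_C and 35.6% ± 0.75 in ND_B12, against 35.7% ± 3.9 in D_C and 35.3% ± 1.8 in D_B12, so the means of the groups lay within the spread between libraries. The average diabetes effect was -0.19 on the log2 scale for Sod1-201 (adjusted p = 0.229) and -0.22 for Sod1-202 (adjusted p = 0.126), and neither passed. By edgeR 0 of 66503 transcripts (0%) passed for the average diabetes effect, where 6760 had an unadjusted p below 0.05. Without ND_B12 4 and D_C 1, 446 of 64127 transcripts passed, Sod1-202 among them.

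**Figure D4:**
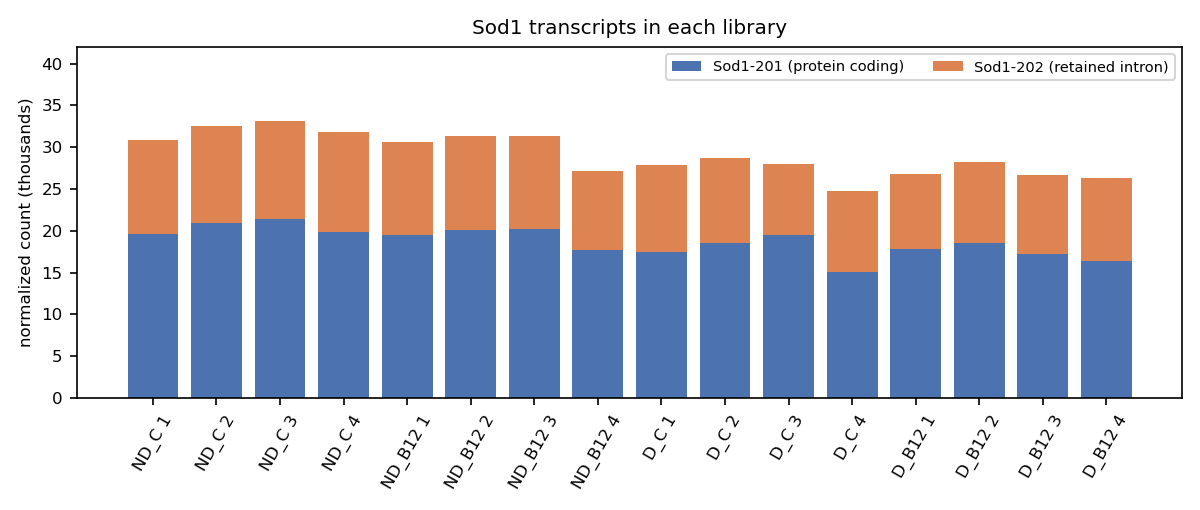
Normalized counts (vertical axis, starting at 0, in units of 1000 counts) of the coding transcript Sod1-201 and the retained-intron transcript Sod1-202, stacked for each of the 16 libraries. Both parts are lower in the 8 diabetic libraries and in ND_B12 4 than in the other 7 non-diabetic ones, and Sod1-202 takes between 30.4% and 39.4% of the bar.

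The genes around these enzymes were described in 4 further lists. Among the other peroxidases of the same families 0 of 6 tested genes passed for the average diabetes effect, with a median log2 fold change of -0.03, and Gpx2 and Gpx5 had fewer than 100 counts in all. In the thioredoxin and glutathione system that regenerates the peroxidases 0 of 15 passed, with a median of -0.01. Among the oxidases that form peroxide 0 of 11 passed, with a median of 0.08. Of the genes that supply copper and selenium to the enzymes 1 of 12 passed, with a median of -0.08, beside 0.007 over all genes. Over all genes tested 3.02% passed for this effect, so 1 gene says little about the list. No gene of these lists passed as higher, and none passed for B12 or the interaction.

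The gene that passed was Selenop, which encodes the plasma selenoprotein that carries selenium to tissues. Its normalized counts were 173654, 194711, 205799 and 142619 in ND_C and 191630, 154574, 161269 and 138070 in ND_B12. They were 125551, 90675, 114857 and 135561 in D_C and 122058, 128618, 118625 and 152598 in D_B12. D_C lay wholly below ND_C, as it did for 4.58% of all genes, while the B12-treated groups overlapped. The average diabetes effect was -0.46 on the log2 scale (SE 0.097, adjusted p = 0.0216 by edgeR) and that between untreated groups -0.62 (SE 0.137, adjusted p = 0.0408), where 1.66% of all genes passed. The average effect lost the call without ND_C 2, ND_C 3, D_B12 1 or D_B12 3, with adjusted p of at most 0.0547, and with the date as covariate, with an adjusted p of 0.322. Over all genes 264 to 296 passed without these libraries and 0 with the date, beside 767 with all libraries. The effect between untreated groups lost it without ND_C 1, ND_C 2, ND_C 3, ND_B12 2, D_C 2, D_C 3, D_C 4 or D_B12 2, with adjusted p of at most 0.12. In these fits 0 to 218 of all genes passed, beside 423 with all libraries. Without ND_B12 4 and D_C 1 both effects passed, with adjusted p of 0.00662 and 0.0163, where 10.2% and 8.57% of all genes passed. The selenium-dependent Gpx1, Gpx3 and Gpx4 had average effects of 0.04, -0.04 and 0.06 in the same libraries. Selenop overlaps exons of Ccdc152 on the other strand.

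**Figure D5:**
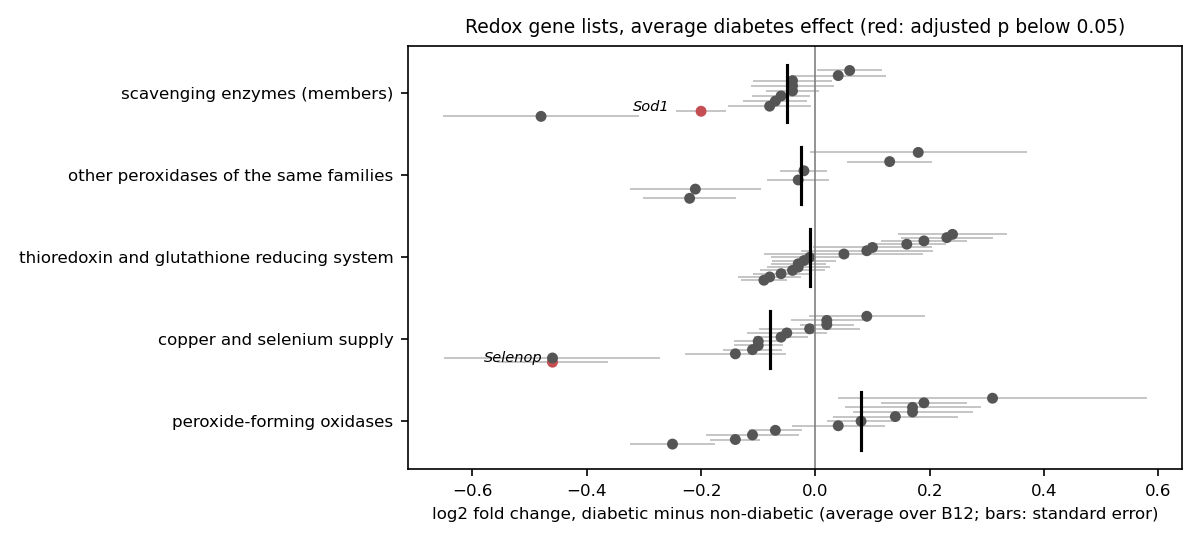
Log2 fold changes of the average diabetes effect (horizontal axis, diabetic minus non-diabetic, with standard errors) for the tested genes of 5 redox lists (rows), with black ticks at the list medians and red points for genes that passed. Sod1 at -0.20 and Selenop at -0.46 are the red points, and the medians lie between -0.08 and 0.08.

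The genes whose pattern was most like that of Sod1 and Gpx6, the members with the smallest p for the average diabetes effect, were ranked by Pearson's r of log2 CPM over the 16 libraries among 9435 genes with a mean of at least 10 CPM. For Sod1 they were Tmem205 (r = 0.930), the proteasome subunit Psmd7 (0.907) and the carboxylesterase Ces2c (0.882). For Gpx6 they were Prdm16os (0.931), the calcium-sensing receptor Casr (0.918) and uromodulin, Umod (0.896). The points share the groups and the dates, so these values are descriptions. Umod is a defining marker of the thick ascending limb, and the sum over Slc12a1, Umod and Cldn10 lay between 242338 and 289741 normalized counts in ND_C and between 198749 and 302331 in ND_B12. It lay between 232918 and 313220 in D_C, whereas the libraries of D_B12 had 175116 to 206266. D_B12 was thus low in this sum as it was in Gpx6. This likeness is partly built in, since Umod was picked for its pattern in these libraries and is part of the sum. For D_B12 minus D_C 2 of the 3 markers lay below 0 and 1 above, at 0.01. The part of these markers in the values of Gpx6 was not tested.

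Other marker lists moved with diabetes in a few genes. Aqp2, the water channel of the collecting duct, was higher on average in diabetic kidneys (log2 fold change 1.14, SE 0.270, adjusted p = 0.0348 by edgeR), and Jchain of plasma cells (-2.09, adjusted p = 0.0116) and C1qa of macrophages (-0.47, adjusted p = 0.0382) were lower. Over all genes 3.02% passed for this effect, and 0 of 25408 with the date as covariate. Between untreated groups Aqp2 (1.69), Aqp3 (0.60) and Jchain (-1.96) passed, where 1.66% of all genes did. No gene of the lists for the S3 segment, thick ascending limb, distal convoluted tubule, intercalated cells, podocytes, endothelium, red cells, adipocytes or tubular injury passed, 1 of 3 adrenal markers was tested and did not pass, and the 3 skeletal muscle markers had fewer than 100 counts.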

How the data were processed

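Paired reads of 50 bases were aligned by the authors with STAR to GRCm39 with GENCODE vM35, and estimated counts per gene and per transcript were deposited from StringTie and its prepDE script. They were whole numbers, so rounding changed nothing. The label notes also name bcl2fastq 2.20.0. STAR was set to assign strand from intron motifs and to count genes itself. Whether the libraries or the StringTie counts were strand-specific, and the read length set in prepDE, are not given in the sources used here. Columns were assigned to libraries through the number at the end of the library name, with 0 columns left over.

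Genes with at least 100 counts over all libraries (25408 of 57186) were tested in R 4.3.3 with edgeR 4.0.16 (glmQLFit and glmQLFTest, TMM, 1 mean for each labelled group with 12 degrees of freedom left, two-sided, Benjamini-Hochberg at 0.05 over all genes), and 66503 of 149194 transcripts likewise. The test code was first tried on counts simulated from these libraries. The members and lists were chosen with earlier results of these data known. Named genes are the 10 members, genes of the 4 other redox lists that passed (at most 5 per list), and for the 2 members with the smallest p the 3 genes with the most similar pattern and at least 10 CPM, all read from the most abundant row of a symbol. Log2 CPM used a prior count of 2. Alternatives were DESeq2 1.42.0, 2 other normalizations, 2 other filters on low counts, the date in the library name, the replicate number as a block, the compared groups alone, each library left out in turn, and ND_B12 4 with D_C 1 left out. Positions, transcript types and windows come from GENCODE vM39 on the same build. Processed copies of Gpx4 and Prdx1 are listed, Gpx4-ps1 with 622 counts in total, Gpx4-ps2 with 49 and Prdx1-ps with 0. Tables and plots were made with Python 3.11.15, pandas 2.3.3, numpy 2.4.6 and matplotlib 3.10.9.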

Additional observations from a re-analysis of the deposited data

Results flagged for a closer look

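In 3 of 40 sets of 4 libraries, a set being 1 member in 1 labelled group, a single library stood apart from the other 3 by Dixon's criterion, which chance meets in about 1 of 20 groups. Sod1 had 27114 normalized counts in ND_B12 4, the lowest of its group, where the next library had 30676. Gpx4 had 25708 in D_C 1, the lowest of its group, where the next had 33462. Prdx1 had 48688 in ND_B12 4, the highest of its group, where the next had 43993. All 3 values belong to ND_B12 4 or D_C 1, whose diabetes labels are in doubt, and their causes were not tested.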

How the results depend on the processing

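For the average diabetes effect 1 member passed, Sod1, and this number was 2 (Sod1 and Gpx6) with DESeq2 and without ND_B12 4 and D_C 1 together, 0 with the date as covariate, and between 0 and 2 when single libraries were left out, where 9 of 16 fits kept Sod1. Over all genes 7.21% passed with DESeq2, 10.2% without both libraries and 0 genes with the date. With single libraries left out 235 to 1700 genes passed. For diabetes in untreated kidneys no member passed, where 1.66% of all genes did. Sod1 passed with DESeq2, where 1603 of 25408 genes did, and without both libraries, where 8.57% did. With single libraries left out between 0 and 1 member passed. Sod1 passed without D_C 1 (1552 of 25045 genes) and without ND_B12 4 (690 of 25214 genes). For diabetes in B12-treated kidneys 1 passed (Gpx6) with DESeq2 only, where 4.51% of all genes did. For the transcripts 0 passed, and 1 (Sod1-202) without both libraries, where 446 of 64127 transcripts did. For the B12 comparisons and the interaction 0 members passed under every alternative run. Over all genes at most 6 passed for B12 in non-diabetic kidneys, 681 in diabetic kidneys, 6 on average and 923 for the interaction, each with DESeq2. Average diabetes effects that changed sign were those of Gpx1 (-0.25) and Gpx4 (-0.12) with the date as covariate, of Sod2 (0.01), Gpx3 (0.03) and Prdx5 (0.02) without both libraries, and, with single libraries left out, of Gpx1 (-0.004 without D_C 3, range to 0.09), Gpx3 (0.01 without ND_B12 4, range from -0.06) and Prdx5 (0.01 without D_C 1, range from -0.08), none of which passed. The causes were not tested. With the replicate block 1 member passed for the average effect, Sod1 with an adjusted p of 0.0302. The replicate numbers do not pair the libraries, since deviations of same-numbered libraries correlated between -0.183 and 0.168, above 0.1 in 3 of 24 pairs, and 5 of 16 libraries were closest to their own number. Selenop between untreated groups was lost under the block, with an adjusted p of 0.0582, and with the compared groups alone, with 0.0746. It was also lost with genes of at least 1 count (0.063), with the date (0.173) and in 8 fits that left out a library (at most 0.12). Gpx6, the member with the fewest counts, had 830 normalized counts in its lowest library, and depth was not compared with other limits.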

Other observations

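A minor transcript of Gpx3, the coding Gpx3-203, held 7.08% of the gene's count in ND_B12 2 and 6.48% in ND_B12 3, while in the other 14 libraries its share lay between 0.989% and 2.38%. In normalized counts it stood at 95143 and 90863 in these libraries, and at 29977 and 31257 in ND_B12 1 and ND_B12 4 of the same group. The gene as a whole was not higher there, with 1343149 normalized counts in ND_B12 2 and 1401315 in ND_B12 3. The share of Prdx1-205, a minor transcript of Prdx1, ran from 0% to 12.5% of the gene's count over the libraries, with means of 8.39% ± 2.8 in ND_C and 5.21% ± 3.5 in ND_B12, against 5.36% ± 2.5 in D_C and 6.06% ± 0.56 in D_B12. These shares are StringTie's division of reads among overlapping transcripts, and no test was made on them.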
